A study of Rattus norvegicus with 2 samples.

Results

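The subject is a set of 7 genes whose proteins build the extracellular gels of the inner ear, Tecta, Tectb, Otog, Otogl, Otoa, Epyc and Ceacam16, in single cells of the cochlear duct of Sprague-Dawley rats. They were taken by symbol, and each symbol stood on exactly 1 of the 32623 gene rows listed for both libraries. The study prepared 1 droplet library (10x Genomics, 3′ end, version 3) from cochlear ducts of rats pooled at postnatal day 1 (P1) and 1 from rats pooled at postnatal day 7 (P7), with no treatment or genetic change named in the labels and no sort described, and it asked how the greater epithelial ridge changes between these ages. The labels call the cells greater epithelial ridge cells, whereas clusters led by epithelial markers made up 2.34% of the kept P1 cells and 1.70% of the kept P7 cells. The pools and the libraries coincide with the ages, so the difference between ages cannot be told apart from the difference between libraries. No test between ages was possible, and each interval below is an exact 95% interval that covers counting error only.

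The tectorial membrane is an acellular gel that lies over the hair cells of the organ of Corti and couples sound-driven motion to their hair bundles. It is laid down around birth, largely by the greater epithelial ridge, a transient block of columnar cells on the inner side of the duct, with contributions from supporting cells. Alpha-tectorin and beta-tectorin, the products of Tecta and Tectb, are zona pellucida domain glycoproteins of its striated sheet matrix, and the product of Ceacam16 is a secreted protein that binds alpha-tectorin and joins this matrix late. Otog and Otogl encode otogelin and otogelin-like, large mucin-like glycoproteins of the inner ear's acellular membranes. Otoa encodes otoancorin, which anchors such gels to the surface of non-sensory cells, and Epyc encodes epiphycan, a small leucine-rich proteoglycan. Epcam encodes a surface adhesion protein of epithelial cells and served here as the mark of an epithelial cell.

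Promoter sequences from RefSeq were matched by symbol for 6 of the 7 genes, and Tecta had no entry. Shown are the 250 bases before the annotated start, on build GRCr8, of 4 of the 6 genes with 50 or more transcripts counted in epithelial cells, those with ratios between the ages farthest from 1, Tectb, Epyc and Otoa on the higher side at P7 and Otogl on the lower side. Capitals mark matches, on either strand, to the SOX-type letters ACAAAG, the GATA-type letters GATAAG or the TATA letters TATAAA, none of which overlap each other.
Tectb, chr1:264226713-264226962, + strand: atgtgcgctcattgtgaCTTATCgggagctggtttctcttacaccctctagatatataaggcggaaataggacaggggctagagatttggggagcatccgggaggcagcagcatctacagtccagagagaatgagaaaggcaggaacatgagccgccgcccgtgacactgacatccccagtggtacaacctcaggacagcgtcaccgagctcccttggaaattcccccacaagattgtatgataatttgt
Epyc, chr7:34323082-34323331, + strand: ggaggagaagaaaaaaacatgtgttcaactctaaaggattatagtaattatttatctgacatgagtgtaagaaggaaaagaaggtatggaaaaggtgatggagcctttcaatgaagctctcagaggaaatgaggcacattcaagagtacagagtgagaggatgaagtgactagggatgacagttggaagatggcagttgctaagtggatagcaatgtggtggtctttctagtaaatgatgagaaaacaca
Otoa, chr1:185074021-185074270, + strand: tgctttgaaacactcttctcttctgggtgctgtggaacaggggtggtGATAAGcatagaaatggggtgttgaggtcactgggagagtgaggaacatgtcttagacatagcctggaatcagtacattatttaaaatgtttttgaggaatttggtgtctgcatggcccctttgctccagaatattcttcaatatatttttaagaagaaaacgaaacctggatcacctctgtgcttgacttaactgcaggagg
Otogl, chr7:45097870-45098119, - strand: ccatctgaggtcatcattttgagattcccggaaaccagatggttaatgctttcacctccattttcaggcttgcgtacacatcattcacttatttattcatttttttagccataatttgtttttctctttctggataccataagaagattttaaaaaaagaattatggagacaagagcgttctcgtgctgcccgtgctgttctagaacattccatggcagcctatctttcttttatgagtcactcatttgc

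The GATA-type letters stood in the windows of Tectb, 233 bases before the start, and of Otoa, 203 bases before it, and in 6.18% of the 33469 promoter windows of the table. The SOX-type letters stood in the windows of Otog and Ceacam16 and in 16.3% of all windows, and the TATA letters in none of the 6 windows and in 12.9% of all. The share of G and C was 51.6% for Tectb, 39.2% for Epyc, 42.4% for Otoa and 38.0% for Otogl, against a median of 51.2% over all windows. These matches describe letters only.

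The deposited matrices held 14068 barcodes and 114285848 unique molecular identifiers (UMIs, 1 per captured transcript) at P1, and 14501 barcodes and 101264868 UMIs at P7. Between 500 and 5000 genes, 500 or more UMIs and less than 25% mitochondrial UMIs were required, which left 12779 and 12581 cells with medians of 6565 and 6878 UMIs. The libraries shared 60 barcode sequences. The 25 clusters of the merged cells were built without the 7 genes and without the listed markers, and 2 of them were led by epithelial markers, with 299 cells at P1 and 214 at P7. At least 1 UMI of Epcam was found in 631 P1 cells and 573 P7 cells, of which 271 (42.9%) and 175 (30.5%) lay in those epithelial-led clusters. Among glia-like cells, which should lack Epcam, 2.48% at P1 and 2.56% at P7 held a UMI of it, so the Epcam-positive gate also took in 360 and 398 cells of other clusters, and both gates are given.

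Apart from Ceacam16, the genes were concentrated in the epithelium at both ages. The epithelial-led clusters held 2.74% of the kept UMIs at P1 and 1.94% at P7. They held 70.2% of the Tecta UMIs at P1 and 59.2% at P7. For Tectb these shares were 80.1% and 62.7%, and for Otoa 80.7% and 79.6%. Otog and Epyc lay between 71.4% and 73.7% at both ages. The otogelin-like gene stood apart at P1, where 52.0% (46.2 to 57.9) of 294 Otogl UMIs lay in the epithelium, against 71.4% (61.4 to 80.1) of 98 UMIs at P7. Of Ceacam16, the kept cells held 20 UMIs at P1, none of them in the epithelial-led clusters, and 16 at P7, of which 11 were there.

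**Figure D1:**
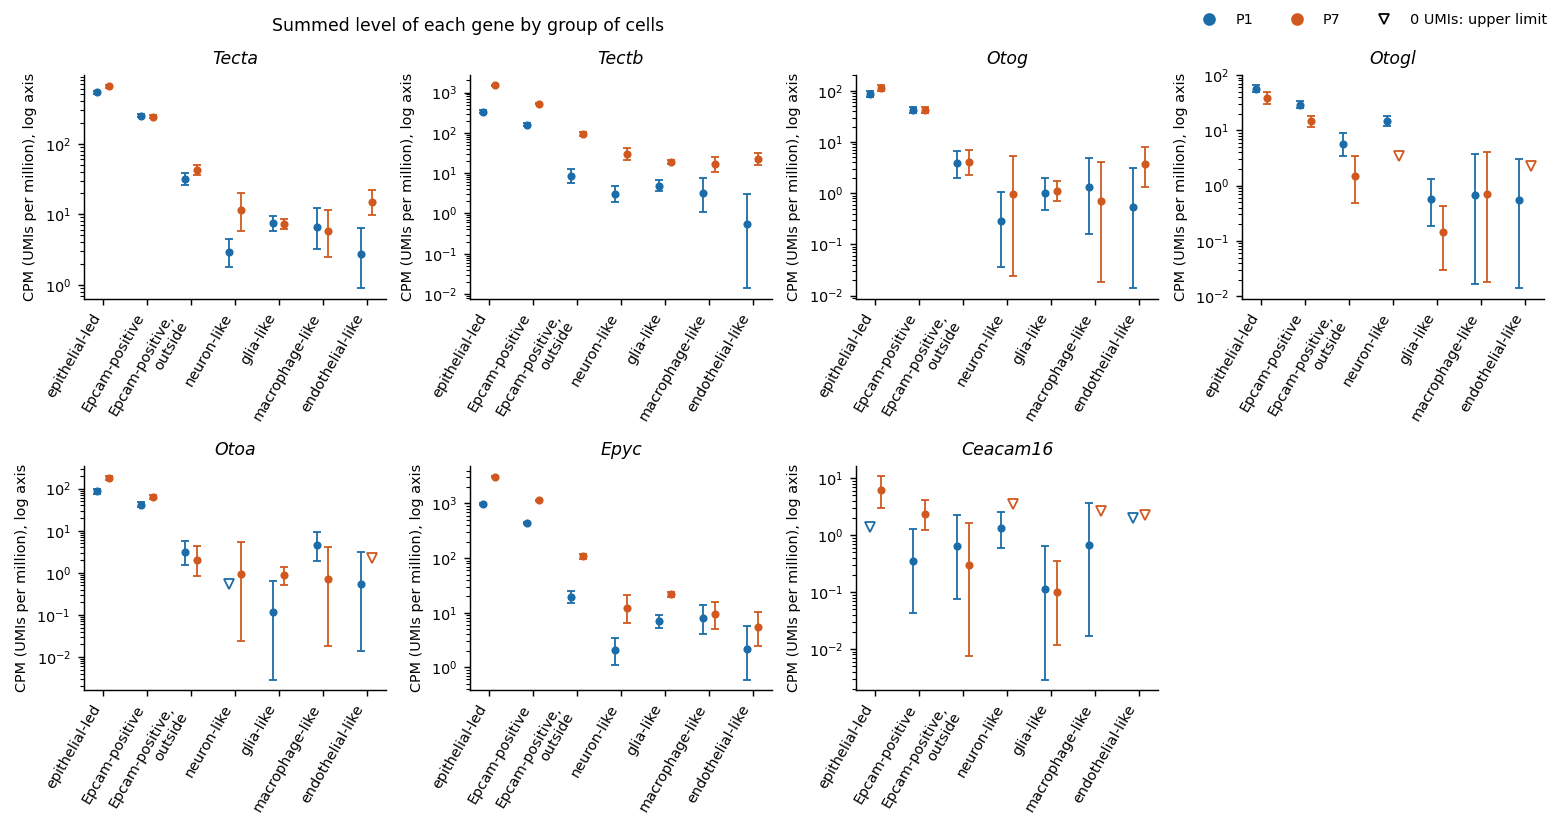
Summed level of each gene in CPM (log axis, a separate scale per gene) by group of cells at P1 (blue) and P7 (orange), with bars for exact Poisson intervals and open triangles for the upper limit where 0 UMIs were found. Each of the 6 genes other than Ceacam16 lies highest in the epithelial-led clusters, as for Tectb at 339 CPM at P1 and 1510 CPM at P7, and Otogl also stands at 14.8 CPM in neuron-like cells at P1.

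The tectorin genes parted between the ages. Levels are sums over the group of cells, in UMIs of the gene per 1000000 UMIs (CPM). The level of Tecta in Epcam-positive cells was 250 CPM at P1 and 243 CPM at P7, a log2 ratio of -0.04 (-0.15 to 0.07). Tectb stood at 160 CPM (921 UMIs) at P1 and 527 CPM (2686 UMIs) at P7, a log2 ratio of 1.72 (1.61 to 1.83), or 3.29-fold. Tectb was thus higher at P7 by more than counting error, and for Tecta the interval spanned no difference. In the epithelial-led clusters Tecta was 537 CPM and 650 CPM, a log2 ratio of 0.27 (0.16 to 0.39), and Tectb was 339 CPM and 1510 CPM, a log2 ratio of 2.16 (2.05 to 2.27). For each UMI of Tecta these clusters held 0.631 (0.580 to 0.686) UMIs of Tectb at P1 and 2.32 (2.17 to 2.49) at P7, so Tecta had more UMIs than Tectb at P1 and fewer at P7. The direction for Tecta depended on the gate. Leaving out a shallow sub-cluster described below, E0, gave -0.49 (-0.61 to -0.37), while Tectb stayed higher at P7 at 1.17 (1.05 to 1.29). E0 had 88 P7 cells and 1 P1 cell, and held 37.8% of the Tecta UMIs of the P7 epithelium. Leaving it out thus took Tecta-rich cells from P7 almost only. Sub-cluster E1, with 60.7% of the Tecta UMIs of the P1 epithelium, stayed in.

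At full depth more Epcam-positive cells held a UMI of each tectorin gene at P7. After thinning the shares were again higher at P7, with overlapping intervals, which does not show that they were equal. A UMI of Tecta was found in 26.1% (22.8 to 29.8) of Epcam-positive P1 cells and 33.7% (29.8 to 37.7) at P7. For Tectb the shares were 13.9% (11.3 to 16.9) and 27.7% (24.1 to 31.6). Median depths of the gated cells were 7565 and 7674 UMIs. Among glia-like cells, at medians of 4221 and 4836 UMIs, Tecta was found in 3.08% and 3.94% and Tectb in 1.95% and 8.49%. Thinning every cell to 2000 UMIs left out 20 shallower cells at P1 and 49 at P7. Of these, 14 and 40 lay in the epithelial-led clusters. Sub-cluster E0, highest for both genes at P7, had a median of 1312 UMIs there, below that limit. The thinned shares thus differ from the full ones in cells as well as in depth. Tecta was then found in 16.0% (13.2 to 19.2) and 16.98% (13.9 to 20.5). Tectb was found in 8.84% (6.71 to 11.4) and 12.8% (10.1 to 15.9), and the intervals overlapped for both genes.

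The otogelin genes did not move like Tectb. Otog, which encodes otogelin, stood at 42.3 CPM (243 UMIs) in P1 Epcam-positive cells and 42.2 CPM (215 UMIs) at P7, a log2 ratio of 0.00 (-0.27 to 0.27). In the epithelial-led clusters it was 87.9 CPM and 115 CPM, a log2 ratio of 0.39 (0.11 to 0.66). Its direction changed with the gate and stayed small in each. Otogl was 29.1 CPM (167 UMIs) at P1 and 14.5 CPM (74 UMIs) at P7 in Epcam-positive cells, a log2 ratio of -1.001 (-1.42 to -0.60). Among the epithelial-led cells it was 57.0 CPM and 38.8 CPM, a log2 ratio of -0.55 (-0.98 to -0.14), so it was lower at P7 under both gates. A UMI of Otog was found in 18.4% of Epcam-positive cells at P1 and 14.7% at P7, and one of Otogl in 16.0% (13.2 to 19.1) and 8.38% (6.24 to 10.9). In glia-like cells the corresponding shares were 0.473% and 0.692% for Otog, and 0.296% and 0.0903% for Otogl. After thinning, Otogl was found in 4.75% (3.20 to 6.75) and 2.48% (1.33 to 4.21) of Epcam-positive cells, with overlapping intervals.

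Otoa and Epyc were both higher at P7. Otoa, the otoancorin gene, was 41.6 CPM at P1 and 63.0 CPM at P7 in Epcam-positive cells, a log2 ratio of 0.60 (0.35 to 0.85), although it was found in 11.7% of cells at both ages. Among the epithelial-led cells it was 85.6 CPM and 179 CPM, a log2 ratio of 1.06 (0.82 to 1.31). Epyc was 441 CPM (2532 UMIs) at P1 and 1133 CPM (5771 UMIs) at P7 in Epcam-positive cells, a log2 ratio of 1.36 (1.29 to 1.43), or 2.57-fold. Epithelial-led cells had Epyc at 964 CPM and 3093 CPM, a log2 ratio of 1.68 (1.61 to 1.75). A UMI of Epyc was found in 27.3% (23.8 to 30.9) of Epcam-positive cells at P1 and 33.2% (29.3 to 37.2) at P7, against 3.08% and 8.70% of glia-like cells. After thinning, which left out the shallow cells of E0 at P7, these shares were 20.1% and 20.8%, with overlapping intervals, while the level differed. Without sub-cluster E0 the log2 ratio of Epyc was 0.83 (0.76 to 0.90), below the 2-fold limit, and that of Otoa 0.61 (0.36 to 0.86). Leaving out E0 removed cells from P7 almost only.

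Ceacam16 was at the edge of detection. Epcam-positive cells held 2 UMIs of it at P1 and 12 at P7, the latter in 9 cells. In the epithelial-led clusters there were 0 UMIs at P1, where the floor set for a count of 0 (3 UMIs over the group) was 1.12 CPM. At P7 there were 11 UMIs, or 6.10 CPM (3.05 to 10.9), a point value 5.46-fold that floor. The exact interval of the ratio began at 3.74-fold. The P7 UMIs lay in 4 cells of sub-cluster E0, 3 of E8 and 1 of the supporting cell-like E5. The depth allows no statement on which epithelial cells express it.

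Among all genes with 50 or more UMIs in the library where they were higher, 990 of 8812 (11.2%) were at least 2-fold higher at P7 in Epcam-positive cells and 869 (9.86%) at least 2-fold lower, with a median log2 ratio of 0.09. Of the 7 genes 6 reached that number of UMIs, 2 of them (Tectb and Epyc) past the limit on the higher side and 1 (Otogl, exactly at it) on the lower, and their median was 0.30. In the epithelial-led clusters 565 of 5679 genes (9.95%) were past the limit on the higher side and 529 (9.32%) on the lower, while of the same 6 genes 3 (Tectb, Epyc and Otoa) were higher and none lower, with a median of 0.73 against 0.04 over all genes. With 200 UMIs required, 8.95% and 6.87% of the genes in Epcam-positive cells were past it, and with 2 or more UMIs of Epcam per cell 10.2% and 8.54%, where Tectb (1.69) and Epyc (1.69) remained past it. Other cells moved with these values. Of the 6 glial markers with enough UMIs, 5 were past the limit on the higher side in P7 Epcam-positive cells, and the 7 listed summed to 687 CPM at P1 and 4019 CPM at P7, with Mbp, which encodes myelin basic protein, at 112 and 655 CPM. Among the epithelial-led cells this sum was 489 and 1231 CPM, where Tectb, Epyc and Otoa had larger ratios than in the Epcam-positive gate. All 4 hair cell markers with enough UMIs were lower, with Pou4f3, a hair cell transcription factor, at 103 UMIs in P1 Epcam-positive cells and 0 at P7. The part of these cell types in the members' ratios was not tested.

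**Figure D2:**
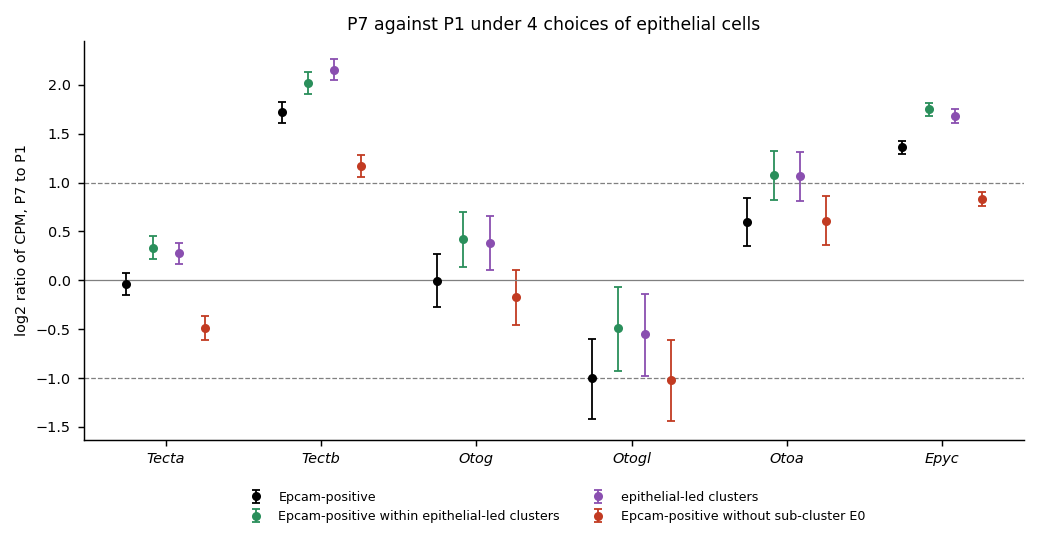
Log2 ratio of CPM, P7 to P1, for the 6 genes other than Ceacam16 under 4 choices of cells, with exact intervals for counting error, and dashed lines at 2-fold. Tectb lies above 2-fold in all 4 choices, from 1.17 to 2.16, Otogl lies below 0 in all 4, and Tecta runs from -0.49 to 0.33.

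Clustered again without the 7 genes and the listed markers, the epithelial-led cells fell into 10 sub-clusters, E0 to E9, and the genes were spread unevenly over them. Most sub-clusters came largely from 1 library, so sub-cluster and age cannot be told apart there. E9 (21 cells, all P1) was hair cell-like, with Myo6 at 1863 CPM, Lhfpl5 at 1075 CPM, Otof at 829 CPM and Pou4f3 at 284 CPM. E5 (29 cells at P1, 20 at P7) was called supporting cell-like, with Sox2 at 694 CPM, Jag1 at 511 CPM and Prox1 at 76.9 CPM. These markers, part of a list of 10, were each highest in E5. Sox2 and Jag1 were not confined to it, at 457 and 162 CPM in E7, 376 and 198 CPM in E0 and 220 and 129 CPM in E1. Of the other listed markers, Hes5 had no UMI in E5, Lgr5 was 3.66 CPM and Lfng 7.32 CPM. Gjb2 was 178 CPM in E5, below 343 CPM in E4. The name E5 carries thus rests on part of the list. The other sub-clusters are called by number. E1 (83 of 84 cells from P1) was led by Moxd1, Fstl1 and Sparcl1, E2 (66 cells, all P1) by Ostn, Rbp4 and Igf1, and E4 (50 of 52 cells from P1) by Upk3a, Fst and Bmp4. E3 (26 cells at P1, 34 at P7) was led by Oc90, Crhbp and Ttr, E8 (29 cells, all P7) by Ucma and Clca2, and E7 (26 of 31 cells from P7) by Pmch, with the myelin gene Mbp among its leading 10 genes. E0 (88 of 89 cells from P7) was led by Kera and Apoa4, and its P7 cells had a median of 1312 UMIs against 6878 over the library. E6, led by the fibrocyte genes Otos and Otor and with 13 called doublets among 32 cells, had fewer than 20 cells at either age and is not described.

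At P1 the tectorins shared the same sub-clusters. Tecta was highest in E1 at 2061 CPM (1926 to 2202), followed by the supporting cell-like E5 at 831 CPM (729 to 943). It was lower in E3 at 174 CPM (126 to 236) and in the hair cell-like E9 at 146 CPM (109 to 193), which did not differ beyond counting error, and in E9 31 of the 50 UMIs came from 1 cell. E2 stood at 63.5 CPM (45.8 to 85.9), and E4 held no UMI of Tecta in 50 cells. Tectb was 1185 CPM (1063 to 1318) in E5 and 1082 CPM (985 to 1186) in E1, with overlapping intervals, and at most 20.5 CPM (8.24 to 42.3) in each of the other P1 sub-clusters. E1 and E5 held 50.5% and 37.5% of the Tectb UMIs of the P1 epithelium.

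At P7 the leading sub-cluster was the shallow E0. Tecta there was 1797 CPM (1634 to 1973), followed by E7 at 909 CPM (809 to 1019), E5 at 665 CPM (570 to 773), E3 at 379 CPM (322 to 445) and E8 at 116 CPM (81.5 to 160), all neighbours in this order lying apart. Tectb was 5193 CPM (4912 to 5485) in E0, 2487 CPM (2299 to 2687) in E5 and 1196 CPM (1081 to 1320) in E7, and at most 25.03 CPM in E8 and E3. The supporting cell-like E5, present at both ages with 9857 and 14468 median UMIs, allowed the same sub-cluster to be read at both. In E5 Tecta was 831 and 665 CPM with overlapping intervals, Otog 243 and 220 CPM with overlapping intervals, and Tectb 1185 and 2487 CPM with intervals apart. In E5, as in the epithelial-led clusters, Tectb was thus higher at P7. Tecta was higher at P7 in those clusters, whereas in E5 its point value was lower at P7. No interval of the ratio is given for E5, and the overlap does not show an equal level there.

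The otogelins did not follow the tectorins over the sub-clusters. At P1 Otog was highest in E5 at 243 CPM (190 to 307), which overlapped E3 at 166 CPM (119 to 226) and E1 at 146 CPM (112 to 187), and was lower in E4 at 59.0 CPM, E2 at 13.6 CPM and E9 at 11.7 CPM. At P7 it was 220 CPM in E5, 154 CPM in E0, 149 CPM in E7 and 102 CPM in E3, each overlapping its neighbour, and 18.8 CPM in E8. Otogl was highest at P1 in E4, where Tecta was not found, at 153 CPM (120 to 191) and in 37 of 50 cells. E3 followed at 91.4 CPM (57.3 to 138), which overlapped E4, and E1 at 65.9 CPM. At P7, with only 2 E4 cells, Otogl was highest in E3 at 79.9 CPM (54.6 to 113), close to its P1 level there. Of the P1 epithelial Otogl UMIs, 49.0% lay in E4, whose share of the epithelial-led cells was 16.7% at P1 and 0.935% at P7.

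Otoa was the most confined of the genes. At P1 88.7% of its epithelial UMIs lay in E2, at 309 CPM (268 to 354) and in 53 of 66 cells, while every other P1 sub-cluster stood at or below 28.2 CPM and none was found in E4 or E9. At P7 67.8% lay in E8, at 685 CPM (598 to 782) and in 29 of 29 cells, and every other sub-cluster stood at or below 60.9 CPM. Epyc was high in several sub-clusters and low in others. At P1 it was 1966 CPM (1835 to 2104) in E1, 1386 CPM (1297 to 1478) in E2 and 1213 CPM (1117 to 1314) in E4, against 20.9 CPM in E5, 12.5 CPM in E3 and no UMI in the hair cell-like E9. At P7 it was 8515 CPM (8155 to 8888) in E0, 7466 CPM (7170 to 7772) in E8 and 2334 CPM (2172 to 2505) in E7, against 42.6 CPM (21.2 to 76.1) in E5 and 2.50 CPM in E3. Epyc in E5 was thus below Tectb in the same cells at both ages, 6 UMIs against 341 and 11 against 643.

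**Figure D3:**
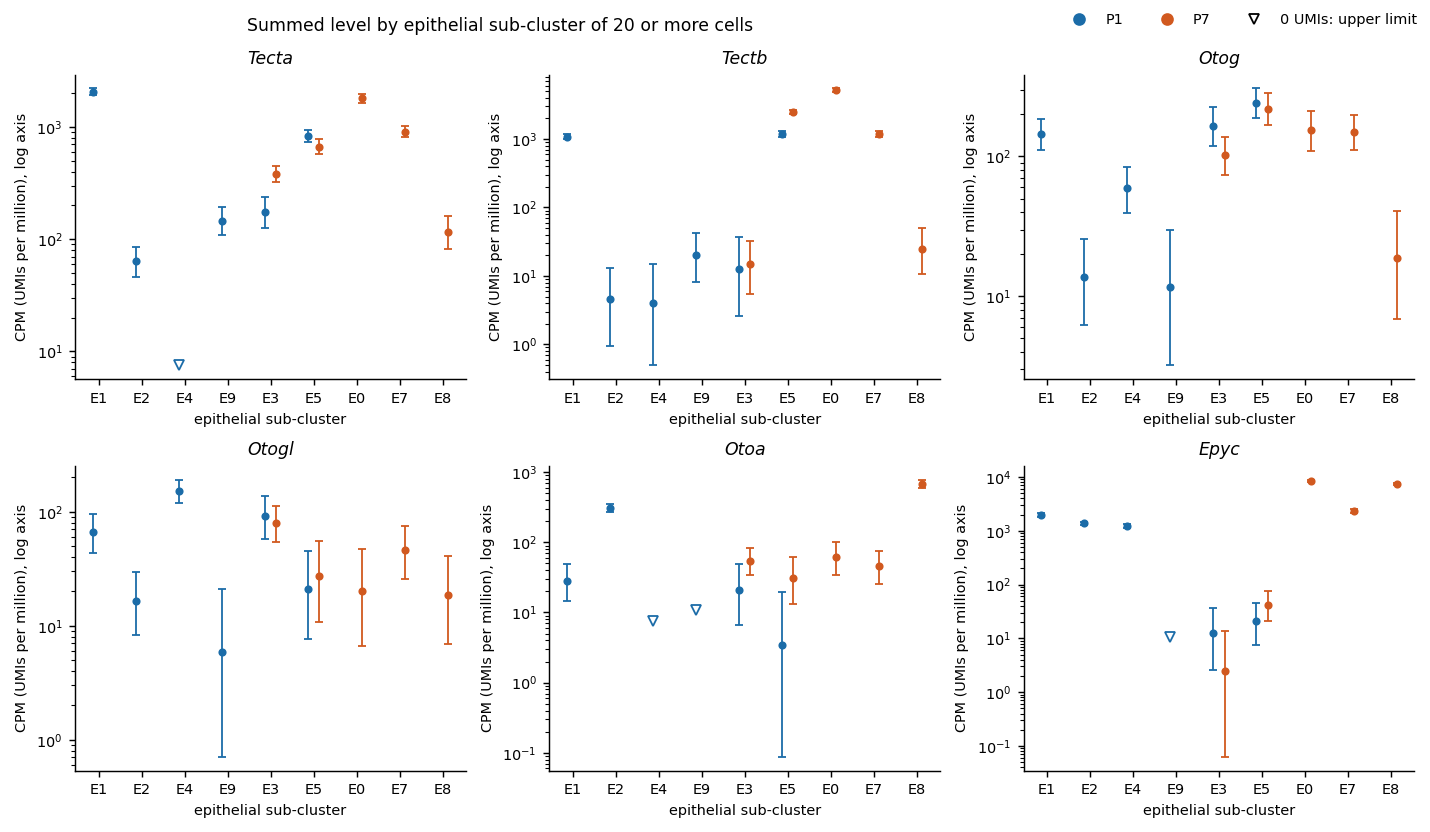
Summed CPM (log axis) of the 6 genes in epithelial sub-clusters with 20 or more cells of a library, with exact Poisson intervals, and open triangles for upper limits at 0 UMIs. Tecta and Tectb stand high in E1, E5 and E0, Otogl in E4 and E3, Otoa in E2 at P1 and E8 at P7, and Epyc is 20.9 and 42.6 CPM in E5 where Tectb is 1185 and 2487 CPM.

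Co-detection was read cell by cell. In Epcam-positive cells 320 of 631 (50.7%) at P1 and 318 of 573 (55.5%) at P7 held a UMI of at least 1 of the 7 genes, and 125 (19.8%) and 142 (24.8%) held 3 or more. Of the glia-like cells 1 of 1691 and 15 of 3322 held 3 or more. Within the epithelial-led clusters 119 of 271 Epcam-positive cells (43.9%) at P1 and 122 of 175 (69.7%) at P7 did so, and no cell held all 7. For each of the 15 pairs among the 6 genes, the share of cells with the first gene was compared between cells with and without the second, and a pair was counted where the intervals did not overlap. In all Epcam-positive cells 10 pairs were found together more often at P1 and 1 less often, and at P7 13 more often and none less often. Thinned to 2000 UMIs, 7 pairs at P1 and 5 at P7 were higher and none lower, and the 7 included Otogl with Tecta, which was not among the 10 at full depth. This gate mixes epithelial cells with others in which the genes are low, and the pairs were therefore also read within the epithelium.

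Within Epcam-positive cells of the epithelial-led clusters, 4 pairs were found together more often and 5 less often at P1, and 1 more often and 3 less often at P7. Tectb was found in 49.6% (40.9 to 58.4) of the 135 P1 cells with Tecta and in 5.15% (2.09 to 10.3) of those without it. At P7 these shares were 58.0% (49.1 to 66.6) and 25% (13.2 to 40.3), the pair that coincided at both ages. At P1 Otog was found in 53.3% of cells with Tecta against 26.5% without it, and in 67.6% of cells with Tectb against 29.4% without it. The pair of Epyc and Otoa also coincided at P1, with Epyc in 82.9% (72.0 to 90.8) of cells with Otoa against 45.3% (38.3 to 52.4) without it, and at P7 in 63.5% and 63.4%.

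The pairs that avoided each other at P1 mostly involved Epyc. Epyc was found in 18.9% (10.7 to 29.7) of cells with Tectb against 68.5% (61.5 to 74.9) of cells without it, and in 42.2% of cells with Tecta against 67.6% without it. With Otog it was found in 38.9% against 65.6%. At P7 Epyc was found in 65.5% (54.6 to 75.4) of cells with Tectb and 61.4% (50.4 to 71.6) without it, so the separation of P1 was not seen in the pooled P7 cells. Within E5 at P7, 16 of 20 cells held Tectb and 3 of 20 held Epyc. In E0, with 1 P1 cell, 63 of 88 P7 cells held Tectb and 66 held Epyc. These are counts of each gene alone, and pairs were not read within sub-clusters. The libraries hold different sub-clusters, and the part of this in the pooled values was not tested. Otogl was found less often with Tecta at P1, in 24.4% against 41.2%, and less often with Tectb at P7, in 13.8% (7.34 to 22.9) against 36.4% (26.4 to 47.3). Otoa was found less often with Otog at P1, and at P7 less often with Tecta, in 29.0% against 56.8%, and with Tectb, in 24.1% against 47.7%. Thinned to 2000 UMIs, 1 pair was higher and 3 lower at P1, against 4 and 5 at full depth. At P7 2 were higher and 1 lower, against 1 and 3. Not all of the pairs named above thus stood apart in the thinned cells. Thinning is a random draw, made separately for each gate, and the intervals do not cover its variation. Over all epithelial-led cells, thinned P1 pairs were 4 higher and 5 lower, against 5 and 4 at full depth. At P7 they were 1 and 0, against 3 and 2.

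**Figure D4:**
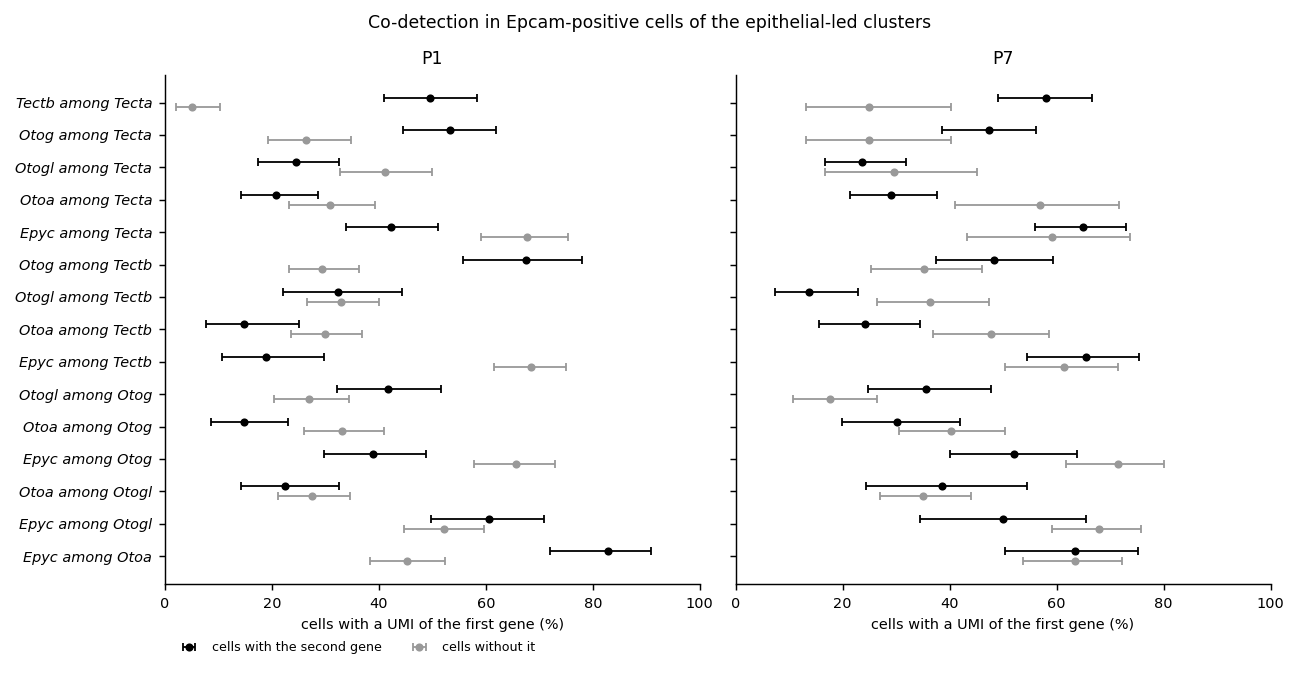
Share of Epcam-positive cells of the epithelial-led clusters with a UMI of the first gene of each pair, among cells with the second gene (black) and without it (grey), at P1 and P7, with exact binomial intervals. Tectb lies well to the right among cells with Tecta at both ages (49.6% against 5.15% at P1), and Epyc lies to the left among cells with Tectb at P1 (18.9% against 68.5%) but not at P7.

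Outside the epithelial-led clusters the 6 genes were low. At P1 their CPM there ran from 0.577 for Otoa to 9.67 for Epyc, and at P7 from 0.307 for Otogl to 21.98 for Epyc. Set against the epithelial level, the median over the 6 genes was 1.06% at P1 and 0.791% at P7. The outside level of Tectb also differed between the ages. Tectb outside was 2.37 CPM at P1 and 17.7 CPM at P7, in 193 of 12480 and 1072 of 12367 cells, and in glia-like, macrophage-like and neuron-like P7 cells it was 19.1, 16.5 and 30.3 CPM. Its ratio to Tecta in glia-like cells was 0.662 (0.439 to 0.987) at P1 and 2.61 (2.16 to 3.17) at P7, and in the epithelium 0.631 and 2.32, and the intervals of glia-like and epithelial cells overlapped at each age, while in unnamed clusters the ratio was 0.320 (0.262 to 0.387) and 1.82 (1.63 to 2.02). Cells with 10 or more UMIs of Tectb numbered 0 outside and 36 inside at P1, and 14 outside and 67 inside at P7.

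Some values outside stood above this low level. Otogl was 14.8 CPM (12.03 to 17.9) in neuron-like cells at P1, found in 78 of 387 cells (20.2%) with a median of 19358 UMIs, against 0.571 CPM in glia-like cells. Nearly all of it lay in neuron-like cluster C18, at 16.2 CPM with 98 UMIs in 75 of 288 cells and at most 4 in a cell, whereas neuron-like cluster C19 held 3 UMIs at P1 and 0 at P7. C18 had no P7 cells, so the lack of a UMI of Otogl in P7 neuron-like cells, 0 UMIs in 146 cells, compares different clusters. The floor set for a count of 0 was 2.84 CPM there. For every UMI of Tecta, neuron-like P1 cells held 5.05 (3.104 to 8.62) UMIs of Otogl and the epithelium 0.106 (0.0892 to 0.125). Ceacam16 also had 9 of its 20 P1 UMIs in C18, 1 each in 9 cells. Counted over all kept cells, Otogl was lower at P7 by more than within the epithelium, with a log2 ratio of -1.51 (-1.86 to -1.18).

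Epyc was uneven over the other clusters. At P1 it was 24.6 CPM in C3, a cluster led by Penk and Pnoc, against 6.51 CPM in the remaining outside cells, in 255 of 2339 cells and with at most 11 UMIs in a cell. Tecta in C3 was 10.9 CPM against 5.48 CPM. At P7 Epyc was 45.01 CPM in C7, led by Sfrp4 and Phex, against 18.5 CPM, and 49.9 CPM in the myelinating glia-like C22 (34 of 129 cells). In the dividing cluster C9 it was 55.3 CPM at P7, but 162 of the 221 UMIs came from 1 cell, which also held 9 UMIs of Epcam, and 14.8 CPM remained without it. Otoa was 3.18 CPM in C8 at P7 against 0.667 CPM, and in P1 macrophage-like cells its 7 UMIs came from 1 cell. The source of these UMIs was not tested.

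**Figure D5:**
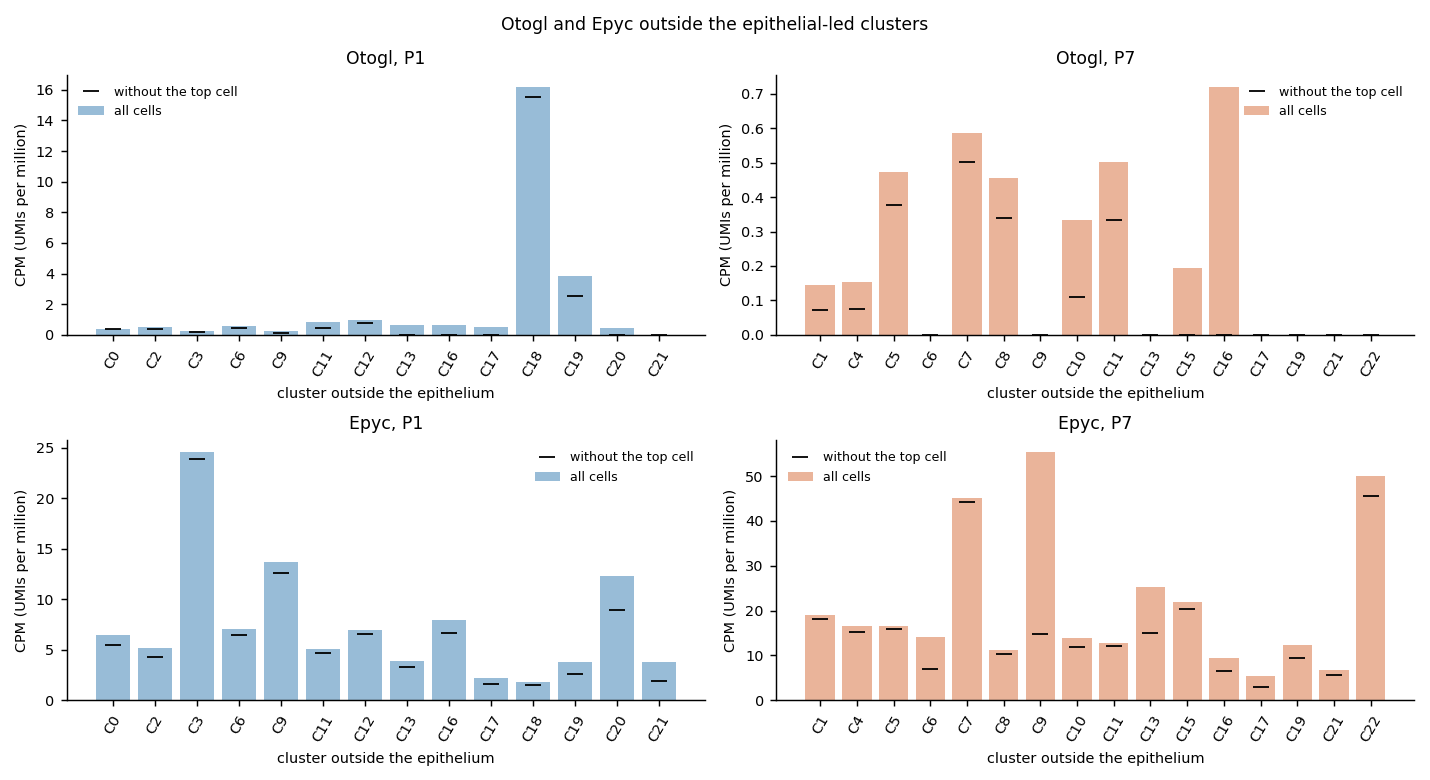
CPM of Otogl and Epyc in each cluster of 50 or more cells outside the epithelial-led clusters, at P1 and P7 (bars, a separate scale per panel), with dashes for the value without the cell that held the most UMIs. Otogl stands at 16.2 CPM in the neuron-like C18 at P1 and at or below 0.719 CPM in each P7 cluster, and the Epyc bar of C9 at P7 falls from 55.3 to 14.8 CPM without its top cell.

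Other genes of inner ear matrices were read from a list of 12. In Epcam-positive cells 4 of the 12 had enough UMIs, 2 of them past 2-fold on the higher side at P7 and none on the lower, and Otop1, Zpld1, Umod and Gp2 had no UMI at either age. Oc90, the otoconin gene, was 2325 and 6334 CPM, and Matn4, a matrilin gene, 252 and 559 CPM. Within the epithelial-led clusters 2 of the 12 had enough UMIs and 1 was past 2-fold, Oc90 at 4952 and 17861 CPM, while Matn4 was 131 and 214 CPM, a log2 ratio of 0.70 (0.49 to 0.91). Oc90 was carried by E3, at 70686 CPM over both ages against 41.3 CPM in the other sub-clusters. E3 made up 8.70% of the epithelial-led cells at P1 and 15.9% at P7. Strc, the stereocilin gene of hair cells, held 8 UMIs at P1 and none at P7. Of 6 collagen genes of the tectorial membrane, 1 was past 2-fold, Col11a2 at 154 and 386 CPM, and within the epithelial-led clusters none was, with a median log2 ratio of -0.06 against 0.73 for the 6 matrix genes of this report. The fibrillar Col2a1 there was 277 and 263 CPM, and Col9a1 1101 and 1306 CPM. The mesenchymal markers summed to 5635 and 9447 CPM in Epcam-positive cells, and their part in these values was not tested.

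Genes most like the members over cells were ranked by the Pearson correlation of log2(CPM + 5) over 17 units, the clusters outside the epithelium and the epithelial sub-clusters with 50 or more cells, of which 3 were epithelial at P1 and 1 at P7. The units share a library and differ in depth, so these are descriptions, and at P7 they rest on the shallow E0. At P1 Tecta was most like Fras1 (0.94), Tmprss6 (0.93) and Tectb (0.92), and Tectb most like Acbd7 (0.95), Fras1 (0.93) and Tecta (0.92). Otog was most like Fgfrl1 (0.92), Otogl most like Gata3 (0.97), Otoa most like Smoc2 (0.96), and Epyc most like Muc15 (0.98) and Epcam (0.98). At P7 Tecta and Tectb were among each other's leading genes at 0.99.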

How the data were processed

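The deposited matrices held raw UMI counts per gene and barcode, which the authors made with Cell Ranger 3.1.0 from 3′ libraries on the rat build rn6, with Seurat 3.1.1 downstream. Totals and barcodes stand in the report. The study's limits on genes, UMIs and mitochondrial share, printed in the report, were applied to every barcode. Libraries were merged in Seurat 5.3.0 (R 4.3.3), log-normalized to 10000 and clustered on 10 principal components of 1895 variable genes (20 neighbours, Louvain, resolution 0.8). A cluster was led by a marker list when at least 3 of its genes were in 10% or more of its cells and its mean log2 ratio was highest and at least 1. Doublets were not removed. Scrublet (scanpy 1.11.5) called 622 P1 and 775 P7 cells, left out as an alternative. CPM is summed UMIs of a gene per 1000000 summed UMIs of the group. Intervals are exact (Poisson, Clopper-Pearson, conditional binomial), and the scripts were tested on simulated data. The named genes are the 7, fixed lists of markers, matrix genes and collagens, and the genes most like each member among the leading 5, and some genes of these lists are not reported here. Members and lists were chosen with earlier results of these data known.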

Additional observations from a re-analysis of the deposited data

Results flagged for a closer look

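Barcodes outside the limits on cells, which enter none of the comparisons above, also held UMIs of the 7 genes, more than the 3 set as the floor for a count of 0. At P1 the 1289 such barcodes held 580 UMIs of Tecta, 190 of Tectb, 118 of Otog, 165 of Otogl, 113 of Otoa, 355 of Epyc and 12 of Ceacam16. At P7 the 1920 such barcodes held 779 UMIs of Tecta, 1584 of Tectb, 108 of Otog, 86 of Otogl, 136 of Otoa, 2395 of Epyc and 7 of Ceacam16. As a share of all UMIs of the gene in the library, these came to 22% for Tecta, 35.9% for Otogl and 37.5% for Ceacam16 at P1, and to 28.2% for Tecta, 26.7% for Tectb and 46.7% for Otogl at P7. Barcodes with too few genes or too many mitochondrial UMIs, at medians of 1073 and 1426 UMIs, held Tecta at 248 CPM at P1 and Tectb at 244 CPM at P7. Those over the gene limit, at a median of 32830 UMIs at P1, held 106 UMIs of Otogl in 57 of 384 barcodes.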

How the results depend on the processing

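Over 13 alternatives to the Epcam-positive gate, limits and scaling, Tectb, Epyc and Otoa stayed higher and Otogl lower at P7 in all 13, with log2 ratios from 1.17 to 2.16, 0.83 to 1.75, 0.20 to 1.08 and -1.51 to -0.49. Tecta ran from -0.49 to 0.33 and Otog from -0.41 to 0.42, so neither kept 1 direction. Scaling by the summed epithelial markers gave -0.44 for Tecta and 0.96 for Epyc. Ceacam16 turned to -0.25 when all kept cells were used, and 3 alternatives without a P1 UMI gave it no ratio. Without E0, an alternative added after the data were seen with those leaving out the top cell or cells under 2000 UMIs, Epyc was 0.83. Leaving out E0 removed cells from P7 almost only. Pairs found together more often went from 10 to 4 at P1 and from 13 to 1 at P7 within the epithelial-led clusters, and from 13 to 5 at P7 after thinning. Of all genes, 990 were 2-fold higher at P7, 593 with 2 UMIs of Epcam and 379 with 200 UMIs a gene, and 869 were lower, 497 and 291. One gene at P7 had over 50% of its epithelial UMIs in 1 sub-cluster, and 2 had at resolution 0.4. No paired analysis was possible because each age is 1 library.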
